A study of Mus musculus with 8 samples.

Results

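Serpins are a family of proteins named for serine protease inhibition, and their transcripts were followed here in the ventral prostate of FVB mice. The family was taken as every gene whose symbol in the platform annotation starts with Serpin. Each gene was represented by 1 probe set. This was, of those that carry a single symbol, the one with the highest average of the 8 arrays. This gave 30 serpin genes out of 12393 named genes. A further 3 probe sets name several serpins at once and are described apart. Clades are given by the letter after Serpin. There were 14 genes of clade B, 8 of clade A, 2 each of clades F and I, and 1 each of clades C, D, G and H.

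The study set 4 wild type samples, labelled normal, against 4 transgenic samples, labelled mPIN (mouse prostatic intraepithelial neoplasia, a lesion that precedes invasive cancer). Both groups were FVB mice aged 20 weeks, and whole ventral prostate was taken in both. The transgenic mice overexpress p110 beta, the lipid-phosphorylating part of a PI3-kinase, in an active form, and the wild type mice did not carry this transgene. The promoter that drives it, the number of founder lines and whether animals were pooled are not given in the sources used here. The labels do not tie the arrays to separate animals. The p-values therefore reflect how far these samples varied, and some of that variation may be technical. The tissue is a mixture of epithelium and stroma, and fewer cells of a type cannot be told apart from less RNA per cell.

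An inhibitory serpin offers its target protease an exposed reactive loop as bait. When the protease cuts the loop, the serpin changes shape and traps the enzyme in a covalent complex, so each inhibitor molecule is used once. Clade A serpins are mostly secreted proteins of blood plasma, such as alpha-1-antitrypsin and antichymotrypsin, and some carry hormones. Clade B serpins lack a classical secretion signal and act largely inside the cell, where they shield it from proteases of its own granules and lysosomes or from those of immune cells. Some members, among them maspin (Serpinb5), pigment epithelium-derived factor (Serpinf1) and the collagen chaperone HSP47 (Serpinh1), inhibit no protease. In the mouse, several human serpin genes have expanded into rows of near-identical copies.

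Values are log2 RMA values, and the median of an array lay between 5.405 and 5.51. A probe set below that median may reflect background more than transcript. Luminal epithelial markers were above the array median on every array for 10 of 10 measured genes, and seminal vesicle markers were below it on every array for 6 of 6. The wild type and transgenic arrays correlated at 0.967 or more with one another. A sign of RNA quality, the signal at the 3 prime end minus that at the 5 prime end of control transcripts (Gapdh, beta actin), was 1.47 ± 0.09 (wild type) and 1.12 ± 0.19 (transgenic) on the log2 scale (SD, n = 4 each; two-sided exact permutation p = 0.0571, where 0.0286 is the smallest the arrays allow). Its part in the results was not tested.

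In transgenic prostates 3 serpin genes were higher and 2 were lower. Serpinb1a, Serpinb11 and Serpinb5 rose, and Serpinb9 and Serpinh1 fell, while 25 genes did not pass the threshold. Calls are from limma over 22626 probe sets with Benjamini-Hochberg adjustment at 0.05. Of all named genes 11.0% passed, 5.99% higher and 4.98% lower, against 16.7% of the serpin genes, which is 5 of 30. The median log2 difference was -0.08 over the family and -0.04 over all named genes.

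**Figure D1:**
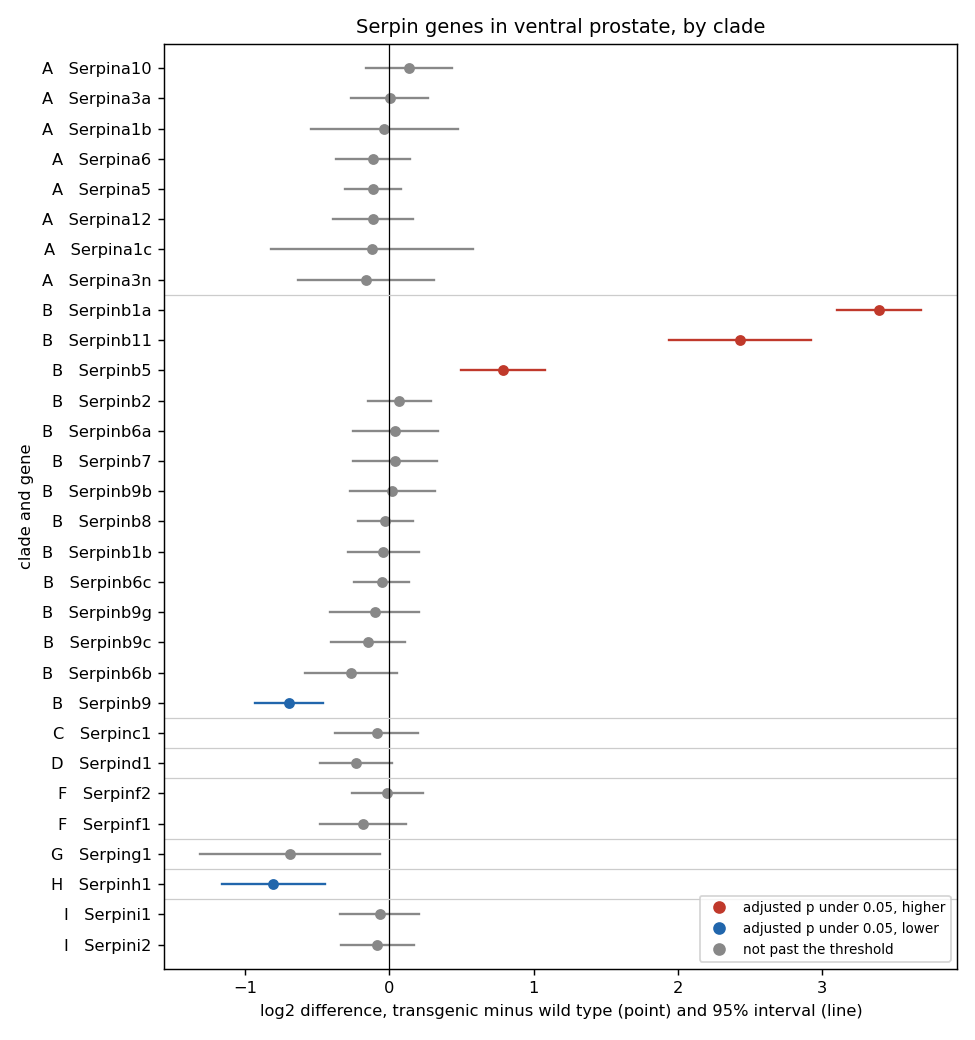
Log2 difference, transgenic minus wild type, for the 30 serpin genes, grouped by clade from A at the top to I at the bottom. Points are estimates and lines are 95% intervals from limma with 4 arrays per group. Serpinb1a, Serpinb11 and Serpinb5 lie to the right of 0, Serpinb9 and Serpinh1 to the left, and the interval of Serping1 leaves out 0 although its adjusted p did not pass.

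Of the 5 calls 4 were in clade B. Of its 14 genes 3 rose and 1 fell, and 10 gave no call (median log2 difference -0.01). Among the 16 genes of the other clades 0 rose and 1, Serpinh1, fell. The difference between clades was not tested. How much each clade could show also differed. Of the 14 clade B genes 5 were above the array median on every array and 8 were below it on every array. Of the 8 clade A genes 0 were above it on every array and 5 were below it on every array. Over the family 9 genes were above the array median on all arrays and 17 were below it on all, against 6380 and 4652 of the 12393 named genes. Of the 9 serpin genes above it on every array, 4 passed the threshold (44.4%), against 16.3% of the 6380 named genes above it on every array. The fifth call, Serpinb11, was above it on the transgenic arrays and on 0 wild type arrays. None of the 17 dim genes passed in limma, where 0 of them also had an unadjusted p under 0.05. Values of dim genes can miss a change, so these 17 are not shown to be unaltered.

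Serpinb1a, the mouse counterpart of the leukocyte elastase inhibitor, changed by the largest amount of the family. This intracellular serpin blocks the neutrophil proteases elastase, cathepsin G and proteinase 3. Its log2 values were 5.52, 5.62, 5.998 and 6.11 on wild type arrays 1 to 4 and 9.14, 9.22, 9.27 and 9.19 on transgenic arrays 1 to 4. The wild type arrays lay just above the array median, and the transgenic arrays stood together more than 3 log2 units higher, with no overlap. The mean went from 5.81 ± 0.28 to 9.21 ± 0.05 (SD, n = 4 each), a difference of 3.39 ± 0.13 on the log2 scale (SE), or 10.5-fold (adjusted p = 6.95e-08). A second Serpinb1a probe set, whose name marks it as shared between transcripts, rose by 2.31, or 4.95-fold (adjusted p = 0.000151). Its wild type arrays were all below the array median, and those of the first probe set just above it, so both folds are approximate. On the second probe set transgenic array 1, at 5.63, was below transgenic arrays 2 to 4, at 6.83, 7.03 and 6.83. The first probe set did not show that gap.

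The close relative Serpinb1b did not follow. It was at 3.47 ± 0.13 (wild type) and 3.42 ± 0.16 (transgenic) (SD, n = 4 each), below the array median on every array, with a difference of -0.04 and a 95% interval from -0.29 to 0.20. Its probe set is too dim to show whether the gene was expressed in either group.

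Serpinb11, a clade B serpin that inhibits trypsin-like proteases in the mouse, also rose. The wild type log2 values were 5.13, 4.39, 5.10 and 5.41, all below the array median, and the transgenic values were 6.92, 7.81, 7.43 and 7.58. All transgenic arrays were thus above the median and above all wild type arrays. The difference of 2.43 ± 0.22 on the log2 scale (SE, adjusted p = 4.06e-05) corresponds to 5.38-fold. Because background can set the wild type values, this fold is approximate. The gene had 1 probe set.

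Serpinb5 encodes maspin, an epithelial protein known for slowing the movement and invasion of tumour cells when it is put back into them. It was measured at 5.89, 6.16, 6.45 and 6.40 in wild type and 7.09, 6.95, 7.14 and 6.88 in transgenic samples on the log2 scale. The lowest transgenic array was above the highest wild type array by a narrow margin compared with Serpinb1a. The rise was 0.79 ± 0.13 on the log2 scale (SE), or 1.73-fold (adjusted p = 0.00283). This probe set carries a mark for sharing between transcripts. The other probe sets gave smaller differences. The second, which carries no such mark and was below the array median on every array, rose by 0.49 (adjusted p = 0.0117). The third, marked as shared, was at 5.97 ± 0.35 (wild type) and 6.50 ± 0.23 (transgenic) (SD, n = 4 each) and did not pass (adjusted p = 0.0823). Which epithelial layer made the Serpinb5 transcript cannot be told from whole tissue. Luminal markers were higher for 6 of 10 measured genes and lower for 0 (median log2 difference 0.50). Basal markers were higher for 0 of 11 and lower for 5 (median -0.34). Of all named genes 5.99% were higher and 4.98% lower. Of the named genes above the array median on every array, as all 10 luminal markers were, 16.3% passed. The mean log2 level of the luminal list ran from 10.1 to 10.3 across wild type arrays and from 10.7 to 10.8 across transgenic arrays, and that of the basal list from 6.03 to 6.22 and from 5.62 to 5.76. The part of these shifts in the rise of the 3 clade B genes was not tested.

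Serpinb9 moved the other way. It encodes the inhibitor of granzyme B, the protease by which cytotoxic lymphocytes kill their targets, and protects the cells that hold it. Its log2 values were 6.78, 6.74, 6.80 and 7.07 in wild type and 5.99, 6.21, 6.25 and 6.14 in transgenic samples. Each group was tight, and every transgenic array was below every wild type array. The fall was 0.70 on the log2 scale, with an SE of 0.11 and an adjusted p of 0.00159, which makes the level 1.62-fold higher in wild type. Of 11 measured markers of T and NK cells 0 rose, 0 fell and 10 were below the array median on every array, with mean log2 levels of the list from 4.26 to 4.64 in wild type and from 4.23 to 4.38 in transgenic samples. Gzmb, which encodes granzyme B, was at 4.53 ± 0.13 and 4.25 ± 0.13 (SD, n = 4 each; adjusted p = 0.1365), below the array median on every array, with no overlap between the groups. With array weights 1 of the 11, Prf1, was lower. Whether fewer lymphocytes have a part in the fall of Serpinb9 was not tested.

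The mouse copies of Serpinb9 gave no call. Serpinb9b, the copy above the array median on every array, was at 5.65 ± 0.17 (wild type) and 5.67 ± 0.24 (transgenic) (SD, n = 4 each), with a 95% interval of the difference from -0.28 to 0.32. Serpinb9c and Serpinb9g were below the median on every array. The probe set named for Serpinb9e, Serpinb9f, Serpinb9g and Serpinb9h together was at 4.52 ± 0.28 and 4.46 ± 0.08 (SD, n = 4 each; adjusted p = 0.862).

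Serpinb6a, which inhibits cathepsin G and trypsin-like enzymes, was far above the array median in both groups and showed no difference past the spread of the arrays. Its log2 values were 10.22, 10.05, 9.68 and 9.89 in wild type and 9.79, 10.18, 10.11 and 9.92 in transgenic samples. The groups overlapped over most of their range. The difference was 0.04, with a 95% interval from -0.25 to 0.34. Serpinb6b and Serpinb6c, copies of this gene, were below the median on every array, at differences of -0.27 and -0.05. The remaining clade B genes Serpinb2 (plasminogen activator inhibitor type 2), Serpinb7 and Serpinb8 were also below it on every array, and their differences lay between -0.03 and 0.07.

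**Figure D2:**
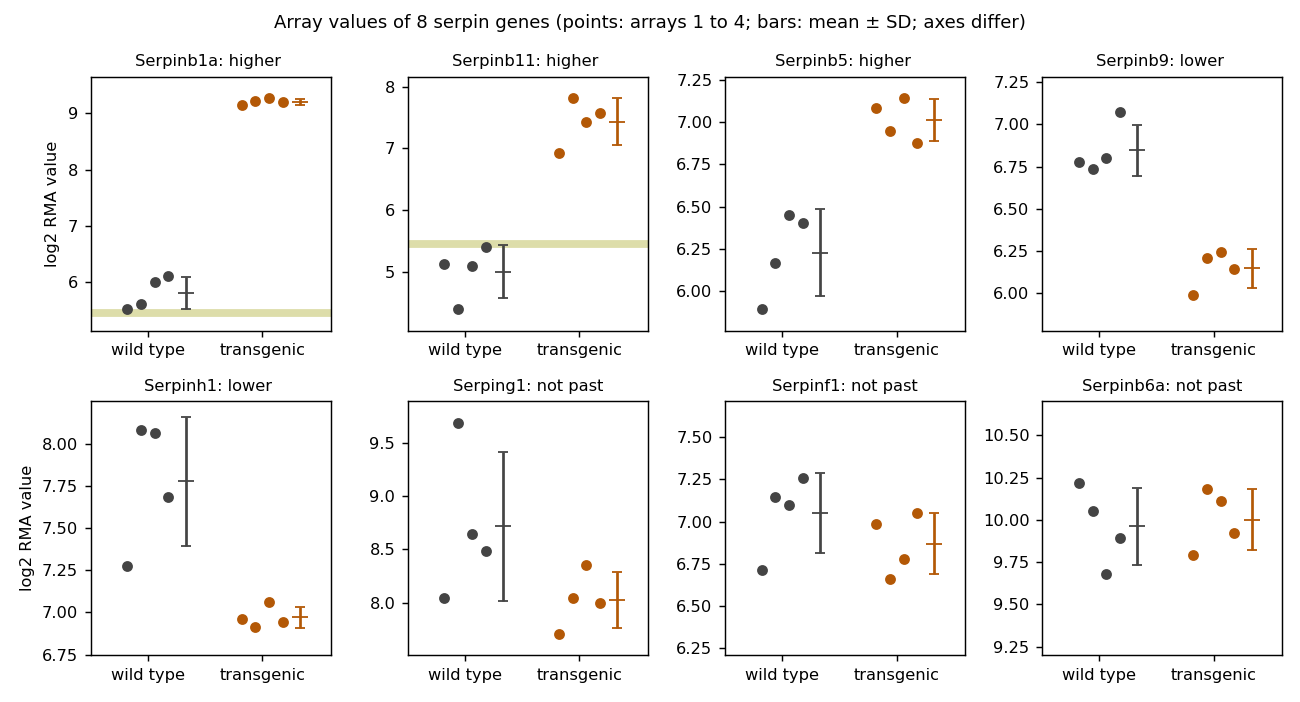
Log2 RMA values of 8 serpin genes, 1 point per array (arrays 1 to 4 from left to right) with the mean ± SD of each group, wild type in grey and transgenic in orange. The band marks the range of the array medians where it falls inside a panel, and the vertical axes differ between panels. The groups are apart for Serpinb1a, Serpinb11, Serpinb5, Serpinb9 and Serpinh1 and overlap for Serping1, Serpinf1 and Serpinb6a.

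The groups did not overlap for 5 of the 30 serpin genes, near the share of 16.3% among all named genes. They were the 5 genes that passed, a call drawn from the same values.

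Serpinh1 is the only member of clade H. It encodes HSP47, an endoplasmic reticulum chaperone that holds newly made collagen chains in their triple helix and is made mainly by collagen-producing cells. The log2 values were 7.28, 8.08, 8.06 and 7.68 in wild type and 6.96, 6.92, 7.06 and 6.94 in transgenic samples. Wild type array 1 was the nearest to the transgenic arrays, which lay within a narrow range below it. The mean went from 7.78 ± 0.38 to 6.97 ± 0.06 (SD, n = 4 each), a fall of 0.80 on the log2 scale (SE 0.16, adjusted p = 0.00884). The other probe set fell by 0.95 (adjusted p = 0.00811). Wild type array 1 was the lowest of its group there too, at 6.33. Both probe sets carry a mark for sharing between transcripts.

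Genes that work beside Serpinh1 were lower in part. Of 17 measured genes of fibrillar collagens, collagen VI and collagen folding 1 rose and 3 fell, and 13 gave no call (median log2 difference -0.41). The share past the threshold was 23.5%, beside 11.0% of all named genes, 5.99% higher and 4.98% lower. Col6a3, a collagen VI chain, fell by 0.59, P4hb, a subunit of prolyl 4-hydroxylase, by 0.54 and Crtap, of the prolyl 3-hydroxylation complex, by 0.60, a call lost without transgenic array 3. P4ha2, another prolyl 4-hydroxylase subunit, rose by 0.59. Without wild type array 1 the number lower was 10, and with array weights 8. The fibrillar collagen genes Col1a1, Col1a2 and Col3a1 were at -0.41, -0.62 and -0.71 and did not pass. Neither did the fibrillar Col5a1 and Col5a2, at -0.29 and -0.75, so the only chain gene that passed was of collagen VI. Fibroblast markers were higher for 0 of 12 and lower for 2 (median -0.49), with mean log2 levels from 6.49 to 7.60 in wild type and from 6.45 to 6.64 in transgenic samples. Without wild type array 1, 6 fibroblast markers were lower, and without any other array except wild type array 4, 1 was. Smooth muscle markers were higher for 0 of 11 and lower for 3 (median -0.45), or 5 without wild type array 1. The part of these lists in the fall of Serpinh1 was not tested.

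Serping1, the only member of clade G, encodes C1 inhibitor, which blocks the first proteases of the complement cascade and plasma kallikrein. It was at 8.04, 9.69, 8.64 and 8.49 in wild type and 7.71, 8.05, 8.35 and 7.996 in transgenic samples on the log2 scale. Wild type array 2 stood above all others, and wild type array 1 was within the transgenic range. The difference of -0.69 ± 0.28 (SE) did not pass (adjusted p = 0.180), with a 95% interval from -1.31 to -0.07. It was -0.37 without wild type array 2 (adjusted p = 0.300). Without wild type array 1 it was -0.91 and passed (adjusted p = 0.0459), as it did with array weights, at -0.78 (adjusted p = 0.0493). A list of its targets and other complement proteases, among them Cfb and Cfi from outside the C1 and lectin pathway, held 7 measured genes. It gave 0 higher and 0 lower in limma, with 0 at an unadjusted p under 0.05.

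The clade F pair gave no call. Serpinf1, pigment epithelium-derived factor, an anti-angiogenic protein of stroma and many epithelia, was at 7.05 ± 0.24 (wild type) and 6.87 ± 0.18 (transgenic) (SD, n = 4 each), with a 95% interval of the difference from -0.48 to 0.12. On its other probe set wild type array 2 was at 6.11 and the other wild type arrays between 4.77 and 4.81, the array that was also highest for Serping1 and, at 6.60, for Serpina3n. Serpinf2, alpha-2-antiplasmin, which inhibits plasmin, was at 5.88 ± 0.20 and 5.86 ± 0.08 (SD, n = 4 each), a difference of -0.01 with an interval from -0.27 to 0.23.

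Clade A gave 0 calls among 8 genes in limma, and 0 had an unadjusted p under 0.05. Differences lay between -0.16 and 0.13. Serpina3n, an antichymotrypsin-like acute phase inhibitor, was at 5.33, 6.60, 6.03 and 6.25 in wild type and 5.88, 5.83, 5.81 and 6.05 in transgenic samples. The transgenic arrays lay inside the wild type range, and the 95% interval of the difference, from -0.63 to 0.31, was wide. Serpina1c and Serpina1b, copies of alpha-1-antitrypsin, were at -0.12 and -0.04, with wild type arrays that ran from 4.57 to 6.45 and from 4.52 to 5.81. The probe sets that name several of these copies were below the median on every array, with differences of 0.01 for Serpina1d with Serpina1a and -0.03 for Serpina1e, Serpina1c and Serpina1b. Near-identical copies can share signal, so no value is given to a single copy with certainty. Serpina6 (corticosteroid-binding globulin), Serpina5 (protein C inhibitor), Serpina10 (an inhibitor of coagulation factor X that needs protein Z), Serpina12 (vaspin) and Serpina3a were below the array median on every array.

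The single members of clades C and D, antithrombin (Serpinc1) and heparin cofactor II (Serpind1), inhibit thrombin in plasma and are made mainly by liver. They were at 4.05 ± 0.27 and 3.96 ± 0.06, and at 4.40 ± 0.17 and 4.17 ± 0.14, wild type and transgenic (SD, n = 4 each). Neither passed (adjusted p = 0.784 and 0.287), and both were below the median on every array. Of 13 genes read as liver and plasma protein markers 11 were below the median on every array. In limma 0 were higher and 0 lower, with 0 at an unadjusted p under 0.05. Trh, a hormone gene that is no such marker, was read among them in place of transferrin (Trf). Trh was below the median on every array. The clade I genes Serpini1 (neuroserpin, of nerve cells) and Serpini2 (pancpin, of pancreas) were dim as well, at differences of -0.07 and -0.08.

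**Figure D3:**
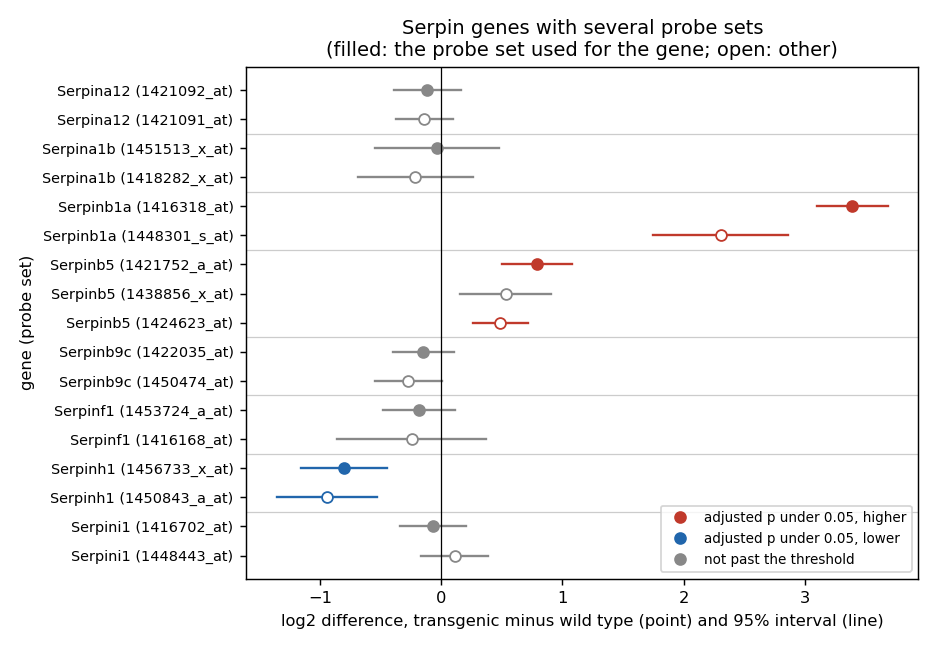
Log2 difference, transgenic minus wild type, with 95% intervals for the 8 serpin genes that have several single-symbol probe sets. Filled points are the probe sets used for the gene and open points the others. Both Serpinb1a and both Serpinh1 probe sets passed, 2 of the 3 Serpinb5 probe sets passed, and the Serpini1 probe sets lay on either side of 0 without passing.

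The dim serpins varied from array to array within the wild type group. Wild type array 1 was the lowest of its group for 21 of the 30 serpin genes and wild type array 4 the highest for 21. The mean log2 value of the 17 dim genes was 3.63 on wild type array 1 and 4.00 on wild type array 4, and between 3.67 and 3.804 on the transgenic arrays. Wild type array 1 had the widest spread of all values of any array, with an SD of 2.10, and wild type array 4 the narrowest, with an SD of 1.92. All transgenic arrays lay between these values. The part of array spread in the serpin differences was not tested. The 5 calls were each kept when wild type array 1 or wild type array 4 was left out.

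Most serpin genes lie in rows along the chromosome, which the choice of members did not use. In the RefSeq annotation of GRCm38.p6, used here for order only, 26 of the 30 genes lie in 5 rows of neighbouring serpins. The row from Serpinb5 to Serpinb8 holds 12 protein-coding serpins, of which 5 were measured. Serpinb5, at its first place, and Serpinb11, at the eighth place, rose, while Serpinb7, Serpinb2 and Serpinb8, further along, did not pass. The row from Serpinb1a to Serpinb6a holds 16, of which 9 were measured. Serpinb1a, at its first place, rose by 3.39, and Serpinb9, at the fourth place, fell by 0.70, with Serpinb6b between them at -0.27 and not passing. Neighbours in a row thus differed in direction. The row from Serpina10 to Serpina3n holds 23 serpins, of which 8 were measured and 0 passed.

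**Figure D4:**
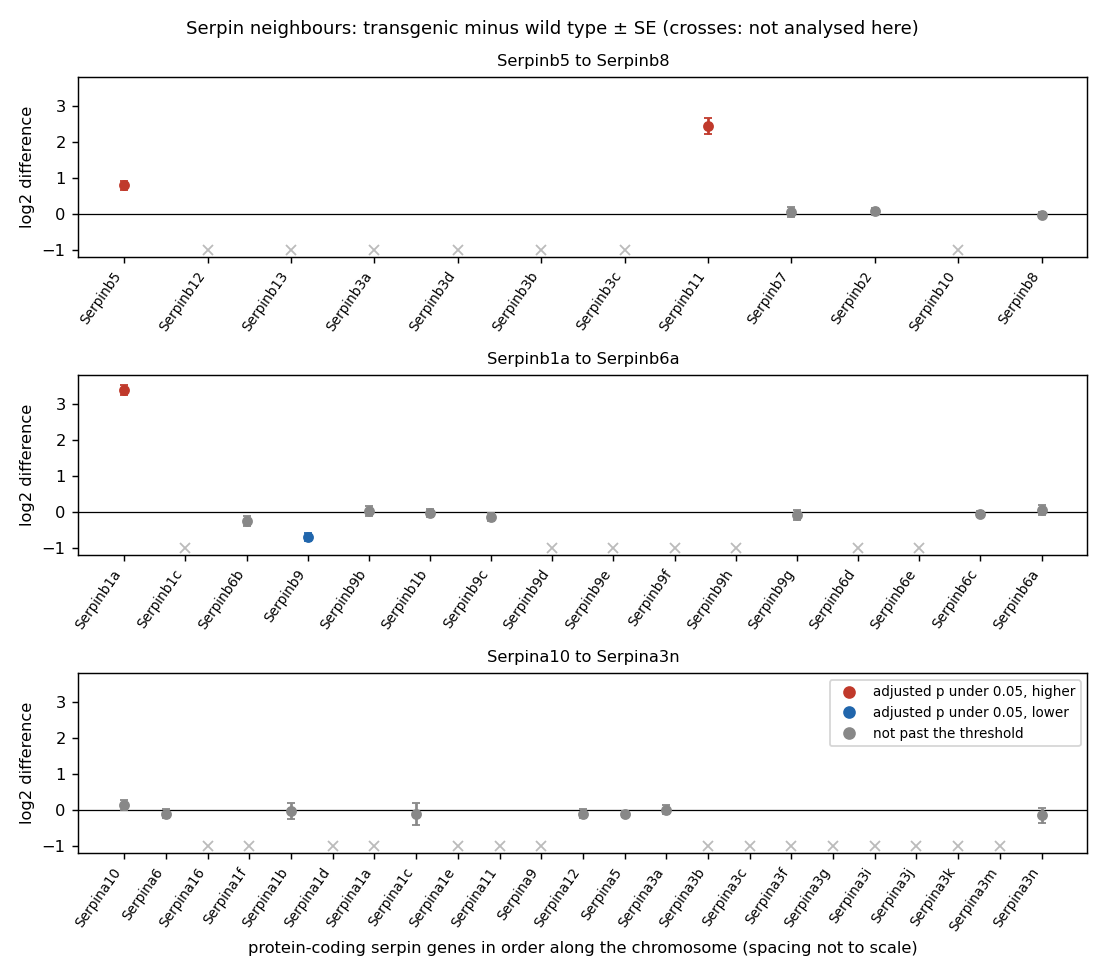
Log2 difference, transgenic minus wild type, ± SE from limma with 4 arrays per group, for serpins of 3 chromosomal rows in their order along the chromosome. Spacing is not to scale, and crosses at the foot mark genes not analysed here and carry no value. In the row from Serpinb1a to Serpinb6a the first gene rose by 3.39 while Serpinb9 fell by 0.70.

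Promoter windows, from 250 bases before to 50 bases after the start of a transcript, were read from the RefSeq table of GRCm38.p6. A window was given for 26 of the 30 serpin genes (29 windows); Serpina10, Serpina6, Serpinb1a and Serping1 had none. The windows of the 4 changed genes that have one are shown, so that the sequence before the genes that rose can be set beside that before the genes that fell. They lie at chr1:107362064-107362363 (plus strand) for Serpinb11, chr1:106860925-106861224 (plus strand) for Serpinb5, chr13:33004291-33004590 (plus strand) for Serpinb9 and chr7:99353190-99353489 (minus strand) for Serpinh1. Capitals mark matches, on either strand, to short motifs that were searched for. The TATA box was searched as TATAAA and the GC box as GGGCGG. The AP-1 site was searched as TGANTCA and the FOXO site as GTAAACA. The half-site of hormone receptors, such as that for androgen, was searched as AGAACA and the heat shock element as GAANNTTC.
Serpinb11: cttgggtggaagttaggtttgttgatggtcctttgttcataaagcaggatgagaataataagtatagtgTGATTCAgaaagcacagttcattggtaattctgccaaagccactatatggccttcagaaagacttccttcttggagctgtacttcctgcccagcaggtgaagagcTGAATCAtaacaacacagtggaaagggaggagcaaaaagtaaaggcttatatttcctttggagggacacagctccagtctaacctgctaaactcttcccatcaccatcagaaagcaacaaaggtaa
Serpinb5: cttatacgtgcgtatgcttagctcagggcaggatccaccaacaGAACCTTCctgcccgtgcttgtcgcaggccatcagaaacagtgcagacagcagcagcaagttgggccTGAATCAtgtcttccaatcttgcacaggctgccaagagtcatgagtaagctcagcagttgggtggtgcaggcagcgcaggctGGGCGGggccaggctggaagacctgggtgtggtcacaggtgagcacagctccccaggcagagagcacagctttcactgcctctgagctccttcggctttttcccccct
Serpinb9: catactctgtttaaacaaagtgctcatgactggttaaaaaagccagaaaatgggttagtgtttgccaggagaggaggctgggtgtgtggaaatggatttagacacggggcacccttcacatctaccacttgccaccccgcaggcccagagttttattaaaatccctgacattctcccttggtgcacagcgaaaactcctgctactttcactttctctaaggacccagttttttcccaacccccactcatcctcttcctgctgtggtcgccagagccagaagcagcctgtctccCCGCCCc
Serpinh1: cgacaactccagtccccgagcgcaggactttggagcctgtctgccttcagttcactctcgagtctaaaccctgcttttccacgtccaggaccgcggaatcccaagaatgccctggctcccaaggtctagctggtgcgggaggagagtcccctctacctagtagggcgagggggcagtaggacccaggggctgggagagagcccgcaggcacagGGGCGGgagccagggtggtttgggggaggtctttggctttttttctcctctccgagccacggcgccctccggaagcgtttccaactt

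Serpinb1a, which rose the most, had no window. The windows of Serpinb11 and Serpinb5, which also rose, both held the AP-1 letters, which FOS and JUN proteins bind. Counted from the start site with no position 0, Serpinb11 had matches whose first base was at -181 (TGATTCA) and -76 (TGAATCA), and Serpinb5 had one at -140 (TGAATCA). The windows of the genes that fell had none, and held a GC box, at -37 in Serpinh1 and, on the other strand, at 44 in Serpinb9. Serpinb5 also had a GC box at -58 and a heat shock element at -207. The AP-1 letters stood in 7.81% of all 32851 windows, the GC box in 35.7% and the heat shock element in 7.86%. Serpin genes with the AP-1 letters numbered 7 of the 26. They included all 5 measured genes of the row from Serpinb5 to Serpinb8, of which Serpinb7, Serpinb2 and Serpinb8 were dim and did not pass, and 0 of 8 genes with a window in the row from Serpinb1a to Serpinb6a. Genes of a row descend from common ancestors, so their windows are not independent. Dim genes cannot show whether the match separates the genes that rose from their neighbours, and its part in the rise was not tested. The FOXO letters stood in 0 of the 29 serpin windows and in 3.65% of all windows, the hormone half-site in 9 and 19.0%, and the TATA box in 6 and 13.6%. A match is a description of letters and not a shown binding site.

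Proteases that serpins meet were read from lists of related genes. For scale, 11.0% of all named genes passed, 5.99% higher and 4.98% lower. Of 12 cathepsins and legumain 7 rose and 1 fell, with a median log2 difference of 0.51. Ctsa rose by 1.11, Lgmn, encoding legumain, by 0.94, Ctss by 0.90 and Ctsh by 0.82, while Ctsz fell by 1.05. Of 7 membrane serine proteases of epithelium 3 rose and 0 fell. Tmprss4 went from 5.21 ± 0.35 to 8.24 ± 0.11 (SD, n = 4 each), where 3 of 4 wild type arrays were below the array median, so its fold is approximate. Tmprss2 rose by 0.97 and St14, encoding matriptase, by 0.47. The St14 call was lost with the replicate block and on leaving out wild type array 3 or any of transgenic arrays 2 to 4. Of 12 tissue kallikreins 5 rose and 0 fell, with Klk1b24 up by 2.31, Klk1b5 by 1.303, Klk1b21 by 1.17 and Klk1b11 by 1.03. These genes are close copies, and their probe sets may share signal. Klk1b11 was below the array median on every array, Klk1b5 on every wild type array and Klk1b24 on 2 of 4 wild type arrays, so their differences are approximate. When the dimmest 40% and 60% of probe sets were left out, 3 and 2 were higher. The other calls were not measured rather than lost. Both filters dropped Klk1b11 and Klk1b27, and the 60% filter also dropped Klk1b5.

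The list of neutrophil, mast cell and lymphocyte proteases holds targets of Serpinb1a, Serpinb6a and Serpinb9, and also Prf1, the pore-forming protein perforin, which is no protease. It gave 0 higher and 0 lower of 12 in limma, and 11 of the 12 were below the array median on every array. Gzmb and Prf1, 2 of the 12, had an unadjusted p under 0.05, as did 2826 of the 12393 named genes. For both the transgenic arrays were below all wild type arrays. Groups without overlap, in either direction, made up 16.3% of all named genes, near the share in this list. With array weights 2 were lower, Prf1 and the mast cell chymase gene Cma1, and without wild type array 1 Cma1 was. Elane, the neutrophil elastase gene, was at 5.56 ± 0.09 (wild type) and 5.58 ± 0.26 (transgenic), and Ctsg at 4.28 ± 0.42 and 4.24 ± 0.17 (SD, n = 4 each). The first stood near the array median and the second below it on every array. Of 11 neutrophil markers 0 rose, 0 fell and 8 were below the median on every array, with mean log2 levels of the list from 4.50 to 5.24 in wild type and from 4.58 to 4.78 in transgenic samples. The part of leukocytes in the rise of Serpinb1a was not tested.

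Of 17 coagulation factors and receptors 0 rose and 0 fell in limma, with 1 at an unadjusted p under 0.05. Of 10 genes of plasminogen activation 2 rose, Anxa2 by 0.88 and S100a10 by 0.65, which together form a plasminogen receptor. The Anxa2 call was lost when probe sets marked as shared were left out. Lrp1, a receptor that takes up protease and serpin complexes, fell by 0.54, a call lost without wild type array 2, 3 or 4 or without transgenic array 1, 2 or 3 and with the replicate block. Of 7 caspases and apoptosis proteases 14.3% passed, near the 11.0% of all named genes. Casp6 rose by 0.78, a call lost on leaving out wild type array 3, transgenic array 2 or transgenic array 3.

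Inhibitors of other families moved both ways. Of 10 genes listed as Kunitz, Kazal and WAP inhibitors 3 rose and 0 fell. This was 30.0% past the threshold, beside 11.0% of all named genes. Pi15 and Pi16 in this list are of another family, and neither passed in limma. Wfdc2 went from 8.22 ± 0.36 to 11.53 ± 0.21 (SD, n = 4 each), Wfdc18 rose by 0.72 and Spint2, an inhibitor of matriptase, by 0.56 (adjusted p = 0.04995). The Spint2 call was lost under quantile and cyclic loess normalization. The number higher was 1 on leaving out any of wild type arrays 1 to 3, and on leaving out transgenic array 2 or 4. Of 13 TIMPs and genes of the alpha-2-macroglobulin family, which inhibit metalloproteases or trap proteases of many kinds, 1 rose and 3 fell. The share past the threshold was 30.8%, beside the same 11.0%. Timp2 rose by 1.596, and Timp4, Itih5 and Reck fell by 1.20, 0.98 and 0.56. The Reck call was lost with the replicate block, on leaving out any of wild type arrays 2 to 4 and on leaving out any of transgenic arrays 2 to 4. Of 8 cystatins and related cysteine protease inhibitors 0 rose and 0 fell in limma, with 0 at an unadjusted p under 0.05, and 6 were below the median on every array.

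Genes induced by TGF-beta and acute phase genes, some of which are induced together with serpins, were also read. Of 9 genes induced by TGF-beta 22.2% passed, beside 11.0% of all named genes; 1 rose, Bhlhe40 by 1.58, and 1 fell, Ltbp2 by 0.35 and dim on every array. The number lower was 0 under quantile and cyclic loess normalization, with the replicate block and without any 1 array other than wild type array 1. Of 15 acute phase genes 20.0% passed. The serum amyloid genes Saa1 and Saa2 rose, from 6.04 ± 1.11 to 12.63 ± 0.06 and from 4.25 ± 0.42 to 9.49 ± 0.10 (SD, n = 4 each). Saa2 was below the array median on every wild type array. Saa3, of the same family, did not pass in limma, at a difference of 0.61 ± 0.65 (SE, adjusted p = 0.679). Its value on wild type array 4 was 9.77, and it passed without that array. The third call was lower, Lcn2 by 0.57, which did not pass on leaving out wild type array 2 or 3, nor on leaving out transgenic array 2 or 4. Serpina3n, an acute phase serpin, did not pass, as given above.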

How the data were processed

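Total RNA of ventral prostate was hybridised to Affymetrix mouse arrays, 1 per sample, in 2 groups of 4. The authors deposited log2 values from RMA, per the submitters' processing notes (version not given), which corrects background, equalises the distribution of arrays and summarises each probe set. A difference shared by all transcripts would be removed by it. The number of arrays limits the precision.

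Probe sets took their symbols from the platform annotation, updated by gene identifier through RefSeq GRCm38.p6. Of the 22690 probe sets 64 controls were left out, and all 8 value columns were used. The 22626 others were fitted together with limma 3.58.1 in R 4.3.3 (transgenic minus wild type, eBayes, Benjamini-Hochberg, threshold 0.05), a fit tested on simulated data. Named serpins were all that passed, the 8 with the highest means and, for clades without one, the member with the smallest p. From 28 lists of related genes up to 4 members past the threshold were eligible by size of change; other genes were named after their values were seen. The members and lists were chosen with earlier results of these data known. Alternatives were quantile and cyclic loess normalization, filters that drop the 40% or 60% of probe sets with the lowest means, a robust prior with trend, array weights, the mean of a gene's probe sets, leaving out probe sets marked as shared, a replicate block, a threshold of 0.01 and leaving out each array.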

Additional observations from a re-analysis of the deposited data

Results flagged for a closer look

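Among 60 groups of 4 arrays (30 serpin genes in wild type and in transgenic samples), 4 had 1 array far from the other 3. Chance gives about 1 in 20 such groups. All 4 genes were below the array median on every array. Serpinb7 was at 4.15 on wild type array 4, against 3.55 to 3.64 on the other wild type arrays. Serpinb8 was at 3.66 on the same array, against 3.55 to 3.57. Serpinb9g was at 4.28 on transgenic array 4, against 3.82 to 3.89, and Serpina10 at 4.57 on transgenic array 1, against 4.39 to 4.42. None of the 4 genes passed in limma in the comparison of groups, at adjusted p from 0.659 to 0.915.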

How the results depend on the processing

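Serpinb1a, Serpinb11, Serpinb5 and Serpinb9 passed in the same direction under all 18 alternatives, with log2 differences from 2.85 to 3.49, 2.22 to 2.60, 0.49 to 0.86 and -0.74 to -0.62. Serpinh1 passed under all 17 that could measure it (-0.97 to -0.70). Both of its probe sets are marked as shared between transcripts, so leaving out such probe sets brought the lower serpins from 2 to 1. Serping1 passed with array weights and without wild type array 1 and under no other alternative. Over all named genes, 742 higher and 617 lower became 408 and 259 at a threshold of 0.01, and the lower genes were 1068 with array weights; the cause was not tested. Leaving out each array gave from 494 to 821 higher and from 359 to 693 lower. The lower genes were 397 without wild type array 3, 378 without transgenic array 3 and 379 without transgenic array 4. The lowest counts, 494 and 359, came without transgenic array 2. With the dimmest 40% or 60% of probe sets left out, 13 and 8 serpins could be measured and the same 5 passed. Same-numbered samples of the 2 groups deviated with correlations of -0.31, 0.24, -0.20 and 0.33, so the numbers were not taken as pairs. With the replicate block the same 3 serpins were higher and 2 lower. The 4 arrays per group and signal near background limit what can be said of the 17 dim serpins.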
